A study of Mus musculus with 4 samples.

Results

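The 50 genes described here encode secreted or cell-surface proteases of the extracellular matrix and their inhibitors: 22 matrix metalloproteases (MMPs), 19 ADAMTS proteases, 5 ADAMTS-like proteins and 4 tissue inhibitors of metalloproteases (TIMPs). They are all the symbols, among the 32285 mouse genes in the deposited feature lists, that read Mmp, Adamts, Adamtsl or Timp followed by a number. Their counts came from single-nucleus RNA sequencing of livers from male mice given DDC, a cholestatic bile-duct injury diet, over 4 weeks, starting when the mice were 10 to 11 weeks old. 2 libraries were from wild-type mice (WT 1 and WT 2) and 2 from mice with Rbpj, the DNA-binding partner of Notch, knocked out in hepatic progenitor cells (CKO 1 and CKO 2). Every library is from a DDC-fed liver, and uninjured liver was not analysed here. The labels name neither the Cre driver nor the deleted exons, and do not say whether the libraries came from separate animals, so p-values measure only the spread between these libraries, which may be technical.

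MMPs are zinc-dependent proteases, most of them secreted as inactive proforms, that cut collagens, gelatin, elastin and other matrix proteins, while membrane-type MMPs stay anchored to the cell surface. ADAMTS proteases carry thrombospondin repeats and have narrower tasks: some cut the proteoglycans aggrecan and versican, some trim procollagens so that fibrils can form, and Adamts13 cuts von Willebrand factor. ADAMTS-like proteins lack the protease domain and bind matrix microfibrils. TIMPs block the active site of these proteases, and Timp3 stays bound to the matrix. In injured liver, fibrogenic mesenchymal cells and macrophages are known sources of many of them.

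9 of the MMP genes lie together on chromosome 9 (GRCm38, chr9:7272514-7699585, 427.1 kb), and those with counts led in different cell classes: Mmp12, Mmp13 and Mmp27 in macrophage-like nuclei and Mmp7 in cholangiocyte-like nuclei. Their promoters are printed here because AP-1, a stress-responsive factor, is a textbook regulator of several genes of this cluster. Each line holds the 250 bases before a RefSeq start site (GRCm38.p6, plus strand), at chr9:7272264-7272513 for Mmp13, chr9:7347124-7347373 for Mmp12, chr9:7571146-7571395 for Mmp27 and chr9:7691840-7692089 for Mmp7. Capitals mark the AP-1 motif, searched as TGACTCA on both strands, so a match on the minus strand reads TGAGTCA.
Mmp13: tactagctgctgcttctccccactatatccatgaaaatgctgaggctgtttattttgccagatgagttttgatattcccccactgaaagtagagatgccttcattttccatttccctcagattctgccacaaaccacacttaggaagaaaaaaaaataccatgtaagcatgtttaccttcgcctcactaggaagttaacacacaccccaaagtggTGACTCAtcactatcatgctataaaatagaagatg
Mmp12: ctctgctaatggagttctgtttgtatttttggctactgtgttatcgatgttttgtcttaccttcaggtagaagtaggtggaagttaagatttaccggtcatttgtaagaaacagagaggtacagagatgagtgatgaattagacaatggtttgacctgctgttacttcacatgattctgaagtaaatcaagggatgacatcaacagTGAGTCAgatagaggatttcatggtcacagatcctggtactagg
Mmp27: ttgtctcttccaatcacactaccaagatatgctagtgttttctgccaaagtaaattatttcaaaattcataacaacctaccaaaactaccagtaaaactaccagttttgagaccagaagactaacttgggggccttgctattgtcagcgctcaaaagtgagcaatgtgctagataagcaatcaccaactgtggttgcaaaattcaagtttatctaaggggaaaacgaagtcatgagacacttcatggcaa
Mmp7: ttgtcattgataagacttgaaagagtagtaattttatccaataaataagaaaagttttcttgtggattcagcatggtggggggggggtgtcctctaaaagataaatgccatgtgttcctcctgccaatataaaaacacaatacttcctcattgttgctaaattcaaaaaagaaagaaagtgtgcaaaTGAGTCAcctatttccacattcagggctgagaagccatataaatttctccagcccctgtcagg
The motif lay 35 bases before the start of Mmp13, 44 before that of Mmp12 and 63 before that of Mmp7, counted to the first base of the motif as printed, and Mmp27 had none in this window. The table lists a second start site for Mmp12 and for Mmp7 without the motif. In windows from 250 bases before to 50 after the start, 6 of the 38 listed promoters of 35 matched members (15.8%) held it, and all 6 belong to the chromosome 9 cluster. Of all 32851 promoters in the table, 5.2% held it. Mmp1b, Mmp3 and Mmp10, which also carry the motif, had 0, 2 and 0 UMIs in all kept barcodes, so promoters with the motif belonged both to members with counts and to members with almost none. The RBPJ core motif GTGGGAA, searched on both strands in the same windows, was in 3 member promoters (7.89%, for Adamtsl2, Mmp23 and Mmp7) and in 6.38% of all promoters. For Mmp7 it lay 114 bases before the second start site, in a stretch that is not printed here (chr9:7692091-7692340). That stretch follows the first start site and lies within the gene. These matches describe letters and show no binding.

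The libraries held 12261329 to 45620141 UMIs in 5184 to 16000 barcodes, and pairs of libraries shared 19 to 114 barcode sequences. After doublet removal, 18228 of 39017 barcodes could be named by marker genes. The other 20789 are called unnamed barcodes and are used here as the reference for free RNA. They may also hold nuclei. At a finer clustering (Leiden resolution 2), an unnamed cluster of 1780 CKO 1 barcodes was led by cell-cycle genes such as Cenpf and Kif11. The named classes held 2334 cholangiocyte-like, 2646 endothelial-like, 1373 mesenchymal-like, 5348 macrophage-like and 5468 hepatocyte-like nuclei. In each of these 5 classes the marker list of its own name was raised over unnamed barcodes for 8 of 12 (hepatocyte-like) to 14 of 14 markers. CKO 2 was the thinnest library in all of these classes but hepatocyte-like, with 46 cholangiocyte-like and 88 mesenchymal-like nuclei. Free RNA was estimated from secreted hepatocyte transcripts relative to unnamed barcodes. It gave 51.5% to 84.1% of the UMIs in endothelial-, mesenchymal-, macrophage- and cholangiocyte-like nuclei, in each with more in both CKO libraries than in both WT libraries. No share is given for hepatocyte-like nuclei, which make these transcripts. Hepatocyte-, macrophage- and endothelial-like nuclei of different libraries fell largely into different clusters: macrophage-like nuclei of CKO 1 were mostly in cluster 18 and those of WT 1 in clusters 2 and 6, and endothelial-like nuclei of CKO 1 were mostly in cluster 13 and most others in cluster 9. Genotype values in these 3 classes therefore compare different clusters. The targeted gene Rbpj had 82.0, 66.0, 72.7 and 40.0 CPM in cholangiocyte-like nuclei of WT 1, WT 2, CKO 1 and CKO 2 (386, 46, 108 and 4 UMIs), a log2 change of -0.09 (SE 0.26) that was 0.019 without CKO 2. Such 3' counts check nothing where the deleted exons are not known.

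Levels are given as CPM, the UMIs of a gene per 1000000 UMIs of that class in that library, and means are over the 4 libraries with their SD. Levels of different genes are not set against each other. 32 members reached 50 UMIs, summed over the libraries, in at least 1 class, and 18 did not. Among the 5 larger classes, which all orders here are limited to, 20 of the 32 had their highest mean in mesenchymal-like nuclei, 5 in cholangiocyte-like, 4 in macrophage-like, 2 in hepatocyte-like and 1 in endothelial-like nuclei. For 15 of the 32, every library of the leading class lay above every library of the next class, 10 of them led by mesenchymal-like, 3 by macrophage-like and 2 by cholangiocyte-like nuclei. The leading mean of 28 members was at least 2 times that in unnamed barcodes. For the other 4 (Mmp14, Mmp15, Mmp19 and Timp1) it was under 2 times, and the part of free RNA in it was not tested. These orders are descriptions with no test.

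**Figure D1:**
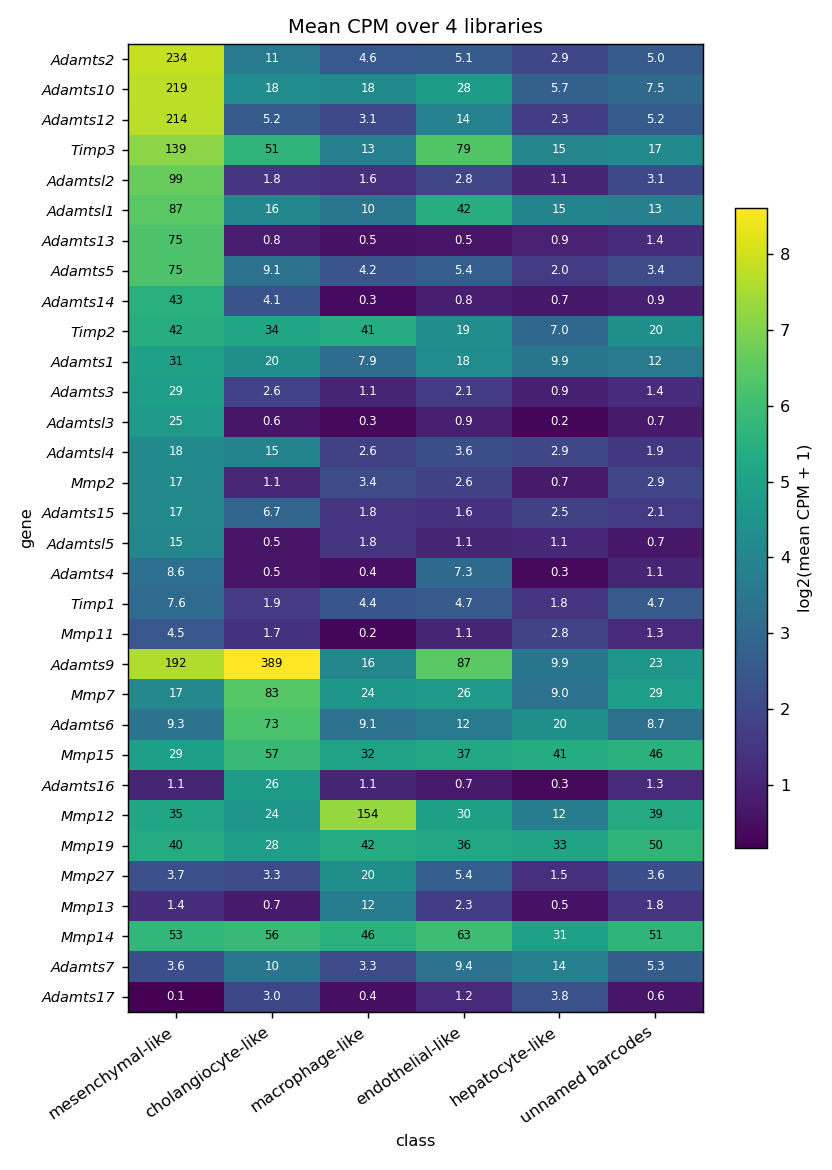
Heat map of the mean CPM over 4 libraries (printed in each cell, colour on a log2 scale) of the 32 members with at least 50 UMIs in a class, one gene per row and one class per column, with unnamed barcodes at the right. The upper 20 rows are led by mesenchymal-like nuclei, with Adamts2 at 234 CPM there and 2.94 to 11.2 CPM in the other classes.

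The procollagen N-proteinases, which remove the amino-terminal propeptide of fibrillar procollagens, were all highest in mesenchymal-like nuclei. Adamts2 (chr11:50602084-50807573) had 288, 299, 202 and 146 CPM there in WT 1, WT 2, CKO 1 and CKO 2, a mean of 234 ± 72.7 (SD, n = 4), against 11.2 ± 9.33 in cholangiocyte-like nuclei, the next class. Adamts3 had 26.2, 37.3, 28.9 and 23.3 CPM in mesenchymal-like nuclei and Adamts14 45.8, 37.3, 25.1 and 64.1 CPM. For each of the 3, every mesenchymal-like library lay above every library of the next class, and the means were 20.8 to 48.1 times those in unnamed barcodes.

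Among the proteoglycanases, which cut aggrecan, versican and related proteoglycans, the members split between 2 classes. Adamts5 (chr16:85856173-85901828) had 107, 110, 42.4 and 40.8 CPM in mesenchymal-like nuclei, 8.23 times the mean of the next class. Adamts9 (chr6:92772699-92943492) was highest in cholangiocyte-like nuclei, at 558, 409, 421 and 170 CPM, and second in mesenchymal-like nuclei, at 233, 198, 202 and 134 CPM. The 2 ranges overlapped, while endothelial-like nuclei followed at a mean of 87.1 CPM. Adamts1, Adamts15 and Adamts4 were led by mesenchymal-like nuclei at means of 31.3 ± 13.4, 16.6 ± 7.28 and 8.61 ± 2.66 CPM (SD, n = 4), each overlapping the next class. For Adamts4 that class was endothelial-like, at 7.34 ± 4.03 CPM.

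Of the proteases that cut cartilage oligomeric matrix protein, Adamts12 (chr15:11064790-11349231) had 218, 243, 304 and 93.2 CPM in mesenchymal-like nuclei, without overlap with the next class at 13.99 ± 3.56. Adamts7 was led by hepatocyte-like nuclei at 24.9, 13.1, 10.6 and 5.52 CPM and overlapped cholangiocyte-like nuclei at 10.1 ± 2.25. Adamts13 (chr2:26973416-27009628), which cuts von Willebrand factor, had 96.1, 60.6, 57.8 and 87.4 CPM in mesenchymal-like nuclei and 0.921 ± 0.459 in hepatocyte-like nuclei, the next class, a ratio of 81.9. Of its 410 UMIs in all kept barcodes, 292 were in mesenchymal-like nuclei.

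The remaining ADAMTS proteases differed in their leading class. Adamts10, which binds microfibrils, was highest in mesenchymal-like nuclei at 308, 205, 211 and 151 CPM, with no overlap with endothelial-like nuclei at 27.7 ± 14.9. Adamts6 was highest in cholangiocyte-like nuclei at 106, 67.4, 79.5 and 40.0 CPM, above all libraries of hepatocyte-like nuclei, which had 3.74 to 30.5. Adamts16 (chr13:70727802-70841811), known from kidney and gonad development, had 47.1, 38.7, 8.08 and 10.0 CPM in cholangiocyte-like nuclei and 1.09 ± 1.26 in mesenchymal-like nuclei, the next class. Of its 356 UMIs, 262 were in cholangiocyte-like nuclei. Adamts17 had 2.86, 3.28, 6.78 and 2.31 CPM in hepatocyte-like nuclei, overlapping cholangiocyte-like nuclei.

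Among the 5 larger classes, all 5 ADAMTS-like genes were led by mesenchymal-like nuclei, while the 100 mesothelial-like nuclei held more Adamtsl1 (643 CPM of summed UMIs, exact Poisson interval 549 to 748). Adamtsl2, a regulator of microfibril-bound TGF-beta that is mutated in geleophysic dysplasia, had 145, 142, 73.2 and 34.95 CPM, which is 35.1 times the mean of endothelial-like nuclei. Adamtsl1 had 145, 100, 37.6 and 64.1 CPM and overlapped endothelial-like nuclei at 42.2 ± 13.8. Adamtsl3 had 42.8, 30.3 and 27.0 CPM in WT 1, WT 2 and CKO 1 and 0 UMIs in CKO 2, which at this depth allows up to 17.5 CPM. Adamtsl5 had 15.5 ± 4.98 CPM, with every library above those of macrophage-like nuclei, the next class, and Adamtsl4 17.7 ± 7.79, overlapping cholangiocyte-like nuclei at 14.5 ± 5.35.

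**Figure D2:**
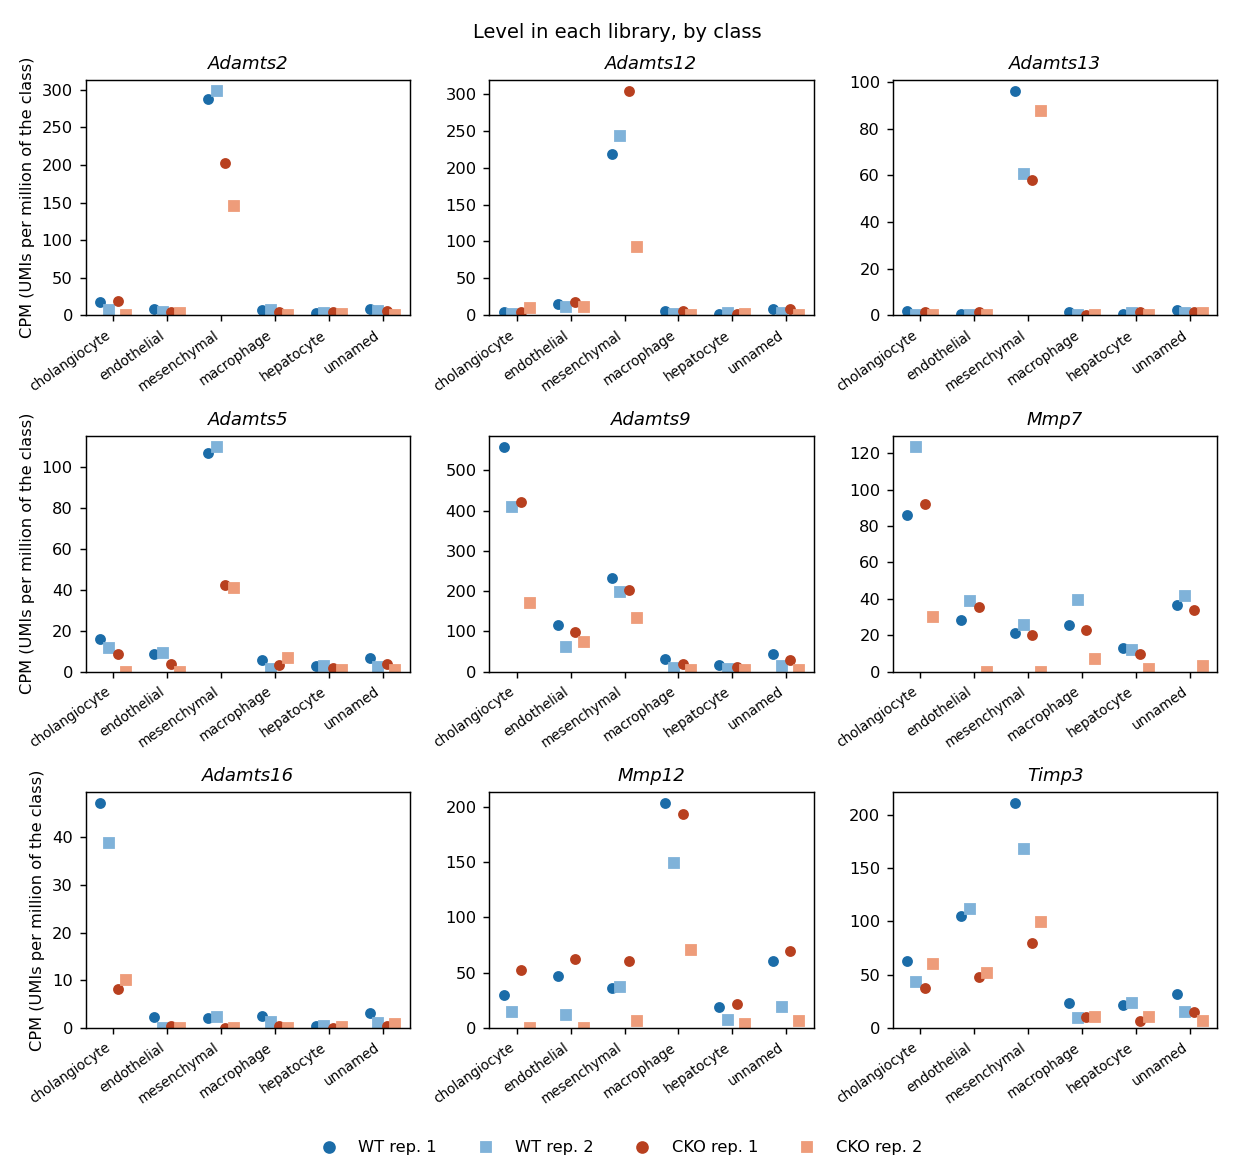
CPM in each library (points, colour and shape by library) of 9 members across 5 classes and unnamed barcodes, on linear axes from 0. Adamts2, Adamts12, Adamts13 and Adamts5 stand out in mesenchymal-like nuclei, Adamts9, Mmp7 and Adamts16 in cholangiocyte-like nuclei and Mmp12 in macrophage-like nuclei, and Adamts16 is below 11 CPM in both CKO libraries.

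Most MMPs were low or close to the level in unnamed barcodes. The macrophage elastase Mmp12 was highest in macrophage-like nuclei at 203, 149, 193 and 70.3 CPM, above every library of mesenchymal-like nuclei at 34.9 ± 22.5. The collagenase Mmp13 had 9.73, 13.2, 9.21 and 16.7 CPM in macrophage-like nuclei and Mmp27 32.8, 13.2, 19.2 and 13.4, both without overlap with endothelial-like nuclei, the next class. The matrilysin Mmp7, an epithelial protease, was highest in cholangiocyte-like nuclei at 86.0, 123, 92.3 and 29.99 CPM, the last from 3 UMIs, against 28.8 CPM in unnamed barcodes. The range overlapped that of endothelial-like nuclei. The gelatinase Mmp2 was led by mesenchymal-like nuclei at 27.2, 18.7, 9.64 and 11.7 CPM, above every library of macrophage-like nuclei at 3.36 ± 1.53. The other gelatinase, Mmp9, had 168 UMIs in all kept barcodes and at most 27 in a class, macrophage-like, of which 20 were in WT 1 and 7 in CKO 1.

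Membrane-type Mmp14, the activator of pro-Mmp2, had 62.9 ± 25.0 CPM in endothelial-like, 56.3 ± 22.9 in cholangiocyte-like and 51.1 in unnamed barcodes, with overlap among all of them. Mmp15 had 56.9 ± 8.06 CPM in cholangiocyte-like nuclei and 46.2 in unnamed barcodes. Mmp19 was higher in unnamed barcodes, at 50.4 CPM, than in any of the 5 classes, whose means ran up to 41.5 ± 20.9 in macrophage-like nuclei. Mmp11, a stromelysin by name, reached 4.51 ± 1.75 CPM in mesenchymal-like nuclei and overlapped hepatocyte-like nuclei at 2.77 ± 0.779.

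Of the inhibitors, Timp3 (chr10:86300372-86349506) was highest in mesenchymal-like nuclei at 211, 168, 80.0 and 99.0 CPM and next in endothelial-like nuclei at 105, 111, 47.9 and 51.4 CPM. Both classes were above unnamed barcodes at 17.0 CPM, and in both the 2 WT libraries lay above the 2 CKO libraries. Timp2 had 41.8 ± 14.9 CPM in mesenchymal-like and 40.7 ± 18.8 in macrophage-like nuclei, which overlapped. Timp1, the inhibitor most often followed in liver fibrosis, had 7.62 ± 2.10 CPM in mesenchymal-like nuclei against 4.71 in unnamed barcodes, from 30 UMIs. Timp4 had 19 UMIs in all kept barcodes and at most 5 in a class. Of the 18 members under 50 UMIs in every class, 5 had fewer than 10 UMIs in all kept barcodes, among them Mmp1b and Mmp10 with 0.

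Mesenchymal-like nuclei were divided into 592 stellate-like and 279 portal fibroblast-like nuclei by subtype markers, with 502 in sub-clusters left unnamed, among them sub-clusters led by macrophage or endothelial genes. Members were left out of the variable genes used for this. Stellate cells store vitamin A beside the sinusoids, and portal fibroblasts surround the bile ducts. Over the summed UMIs of the 4 libraries, Adamts13 had 140 CPM in stellate-like and 6.70 CPM in portal fibroblast-like nuclei, a ratio of 20.9 from 216 and 5 UMIs. Adamtsl4 (26.6 against 6.70 CPM), Adamts1 (40.2 against 14.7), Adamts10 (330.4 against 196) and Adamts9 (240 against 150.1) were also higher in stellate-like nuclei. In the other direction, Timp3 had 410 CPM in portal fibroblast-like and 70.6 in stellate-like nuclei, 5.81 times as much. Adamtsl2 (233 against 64.8 CPM), Adamtsl1 (178 against 67.4), Mmp2 (37.5 against 16.2) and Adamts2 (369 against 205) followed. Timp1 had 24.1 CPM in portal fibroblast-like nuclei (18 UMIs, exact Poisson interval 14.3 to 38.1) and 3.24 in stellate-like nuclei (5 UMIs, 1.05 to 7.56). Each of these directions held in WT 1, WT 2 and CKO 1, for Timp1 with 1 UMI in both subtypes of WT 2. CKO 2 had 3 portal fibroblast-like nuclei and was not used for that count.

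**Figure D3:**
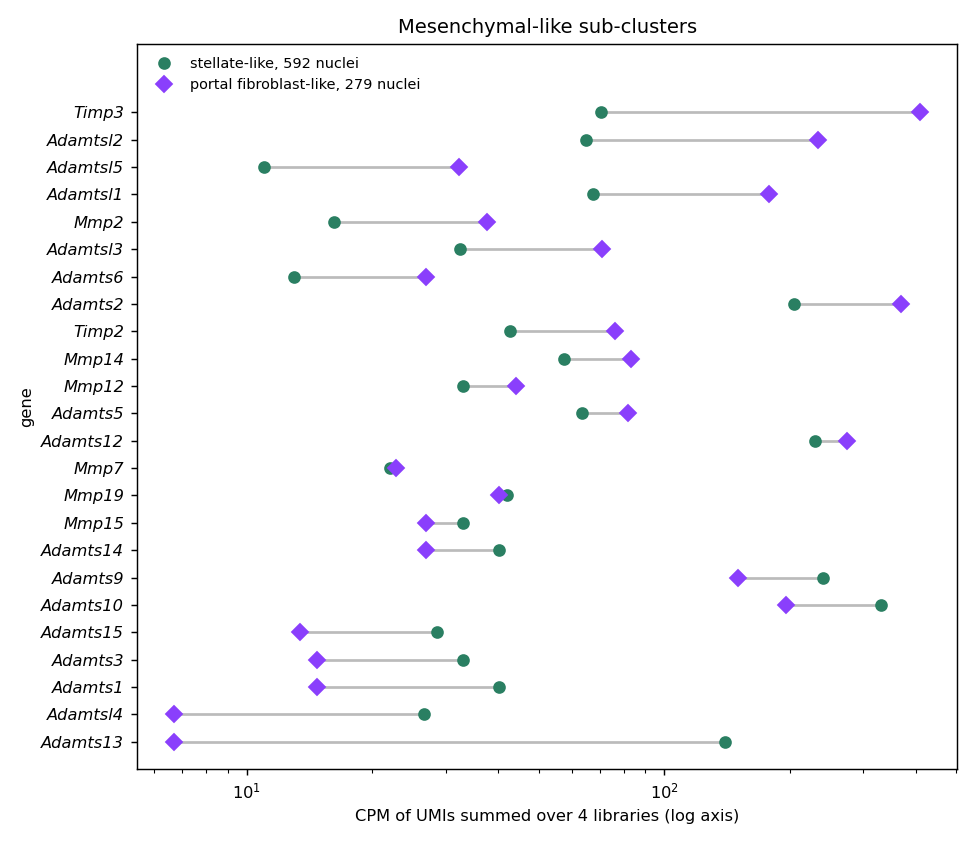
CPM of UMIs summed over 4 libraries in stellate-like (circles) and portal fibroblast-like (diamonds) nuclei, on a log axis, for members with enough counts, ordered by the ratio. Adamts13 at the bottom lies 20.9 times higher in stellate-like nuclei and Timp3 at the top 5.81 times higher in portal fibroblast-like nuclei.

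Endothelial-like nuclei of the vessel type (596 nuclei) differed from the sinusoidal type (364 nuclei) in several members, while 1654 nuclei were in sub-clusters left unnamed. The vessel type pools 4 sub-clusters, and Adamtsl1 was among the leading genes of the one with 110 nuclei, beside Rspo3 and Wnt9b. Adamtsl1 had 158 CPM in vessel-type nuclei, at 175, 127, 143 and 117 CPM in WT 1, WT 2, CKO 1 and CKO 2, and 11.3 CPM in sinusoidal-type nuclei (10 UMIs). Timp3 had 138 CPM in vessel-type and 82.3 in sinusoidal-type nuclei, and Adamts10 had 54.7 and 25.9. By library, in the same order, Timp3 had 179, 118, 85.1 and 97.1 CPM against 104, 116, 43.1 and 0, so WT 2 was nearly level. Adamts10 had 72.9, 45.3, 35.3 and 0 CPM against 26.4, 19.4, 28.7 and 0. The exact Poisson intervals of the summed UMIs did not overlap for any of the 3 genes. They cover counting error only, not the spread between libraries. For Timp3 they were 119 to 159 CPM in vessel-type and 64.5 to 103.5 in sinusoidal-type nuclei.

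CKO libraries were compared with WT libraries by edgeR's quasi-likelihood test on summed counts, with p-values adjusted by Benjamini-Hochberg over all genes tested, and 0.05 as the threshold. No member passed in any of the 5 classes or in all kept barcodes, and no gene of the whole table passed either (0% of the genes tested in each). DESeq2 also called 0 members in each. Of all genes it called 0% in cholangiocyte-like, 0.0198% in endothelial-like, 0.0116% in mesenchymal-like, 0.00822% in macrophage-like and 0.015% in hepatocyte-like nuclei, and 0.00595% in all kept barcodes. Differences are therefore given as values. A permutation of 2 against 2 libraries has 0.333 as its smallest two-sided p. The log2 changes use TMM scaling, which sets them 0.07 to 0.27 above the changes of unscaled CPM, depending on the class.

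In cholangiocyte-like nuclei, Adamts16 had the smallest unadjusted p of the members. It had 47.1 and 38.7 CPM in WT 1 and WT 2 and 8.08 and 10.0 in CKO 1 and CKO 2, so the genotypes did not overlap. Summed over libraries this is 249 UMIs in WT, or 46.1 CPM (exact Poisson interval 40.5 to 52.1), against 13 UMIs in CKO, or 8.20 CPM (4.37 to 14.03), for counting error only. The log2 change was -2.33 (SE 0.36, unadjusted p = 0.000146, edgeR adjusted p = 0.512), with 1 UMI in CKO 2. Without CKO 2 it was -2.36, and with free RNA subtracted it was -2.19. With no count filter the edgeR adjusted p was 0.00022 and with doublets kept 0.0183, and over all alternatives the adjusted p ran from 0.00022 to 1.0. The summed level of the 14 cholangiocyte markers in the same nuclei was 11965, 11003, 10157 and 8377 CPM, also lower in both CKO libraries, and its part in the result was not tested. Mmp19 was higher in both CKO libraries, at 39.1 and 29.99 CPM against 23.8 and 20.1 (log2 change 0.84, SE 0.29, edgeR adjusted p = 0.914), but its mean of 28.2 CPM was below the 50.4 CPM in unnamed barcodes. Mmp12 and Mmp14 had log2 changes of 0.96 and 0.53 with CKO 1 the highest library and CKO 2 the lowest for both. Adamts9, Adamts6 and Mmp7, the other members led by this class, had log2 changes of -0.53 (SE 0.37), -0.23 (SE 0.28) and -0.28 (SE 0.37), and Mmp15 one of -0.28 (SE 0.26).

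Over the 17 members tested in cholangiocyte-like nuclei, 2 had an unadjusted p under 0.05 (1 lower and 1 higher in CKO). This stood beside 5.22% of all 10497 genes (2.77% lower and 2.45% higher). DESeq2 gave 1 member at that p, beside 43 of all genes. The log2 change of 11 members was below 0, beside 52.6% of all genes. 4 members had both CKO libraries below both WT libraries, beside 21.7% of all genes, and 1 had both above, beside 8.61%. The median log2 change of the members was -0.23 and that of all genes -0.02.

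**Figure D4:**
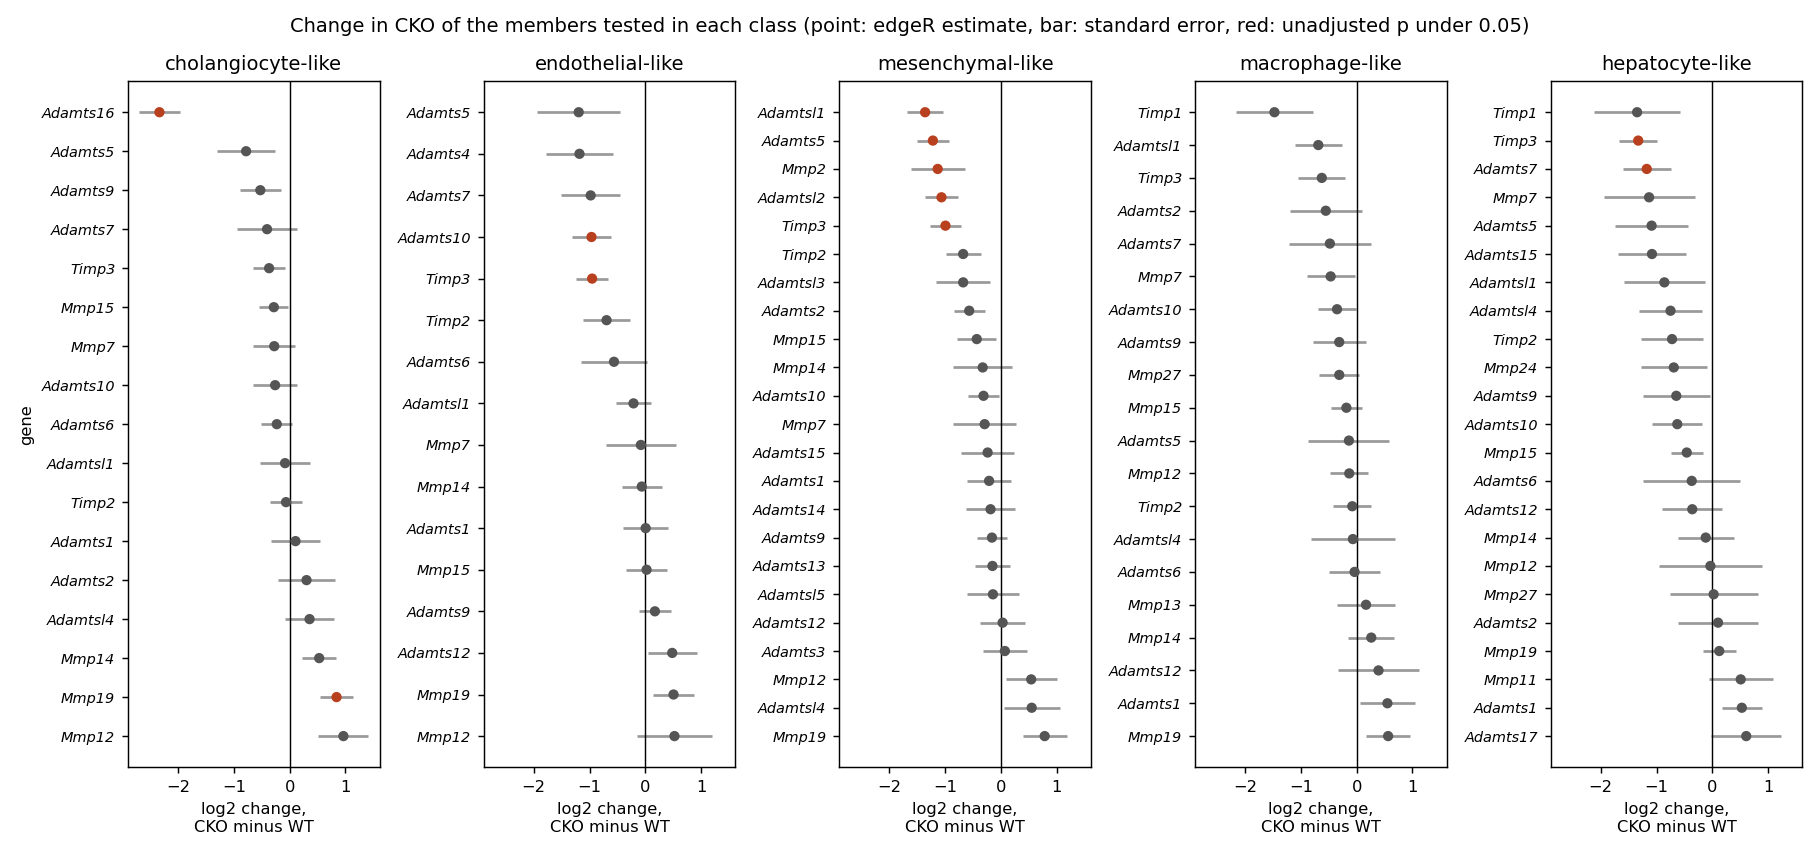
Log2 change in CKO against WT (points, edgeR estimate, with the standard error as bars) of every member tested, one panel per class, with red for an unadjusted p under 0.05. Adamts16 in cholangiocyte-like nuclei, at -2.33, is farthest from 0, and 5 members of mesenchymal-like nuclei are red, all below 0.

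In mesenchymal-like nuclei, 18 of the 23 members tested were lower in CKO, beside 48.9% of all 8630 genes, with a median log2 change of -0.29 against 0.01 over all genes. 5 members had an unadjusted p under 0.05, all lower in CKO, beside 3.58% of all genes lower, 3.99% higher and 7.57% in either direction. DESeq2 gave 4 members at that p, beside 170 of all 8630 genes. 12 members had both CKO libraries below both WT libraries, beside 27.5% of all genes, and 1 had both above, beside 9.64%. Adamts5, with 107 and 110 CPM in WT and 42.4 and 40.8 in CKO, had a log2 change of -1.22 (SE 0.28, edgeR adjusted p = 0.306). Adamtsl1 had 145 and 100.3 CPM in WT against 37.6 and 64.1 in CKO, a change of -1.36 (SE 0.33, edgeR adjusted p = 0.323). Adamtsl2 had 145 and 142 CPM against 73.2 and 34.95 (-1.07, SE 0.30), and Timp3 211 and 168 against 80.0 and 99.0 (-0.996, SE 0.28). For these 4 genes the genotypes did not overlap. Mmp2 had 27.2 and 18.7 CPM in WT and 9.64 and 11.7 in CKO, from 54, 8, 10 and 2 UMIs (-1.13, SE 0.48, edgeR adjusted p = 0.621).

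The procollagen N-proteinase Adamts2, with -0.57 (SE 0.28), was also lower in both CKO libraries, while Adamts12 (0.03, SE 0.40), Adamts13 (-0.15, SE 0.32), Adamts10 (-0.31, SE 0.28) and Adamts14 (-0.19, SE 0.43) overlapped between genotypes. Without CKO 2, the changes of Adamts5, Adamtsl1 and Timp3 in this class were -1.23, -1.64 and -1.16. Without CKO 1, those of Adamts5, Adamtsl1 and Adamtsl2 were -1.14, -0.725 and -1.78. Mmp14 had 0 UMIs in CKO 2. The share of portal fibroblast-like nuclei in the class was 24.0%, 23.4%, 16.2% and 3.41% in WT 1, WT 2, CKO 1 and CKO 2, and Timp3, Adamtsl1, Adamtsl2 and Mmp2 are among the members higher in that subtype, as are Adamts2, Adamts12, Adamtsl3, Adamtsl5 and Timp2. The 14 cholangiocyte markers summed to 2347, 1873, 1773 and 1008 CPM in this class, also lower in both CKO libraries. Adamts5 had 84.4, 134 and 41.6 CPM in portal fibroblast-like nuclei of WT 1, WT 2 and CKO 1. In stellate-like nuclei of the 4 libraries it had 74.5, 66.9, 47.9 and 0 CPM (68, 10, 20 and 0 UMIs). Of the 310 UMIs of Adamts5 in the class, 151 were in the sub-clusters left unnamed. Its levels there were 173, 132, 37.6 and 59.3 CPM (104, 24, 17 and 6 UMIs). Within stellate-like nuclei, Timp3 had 95.3, 40.1, 23.9 and 94.6 CPM (87, 6, 10 and 6 UMIs). Adamtsl1 had 89.8, 107, 7.18 and 47.3 CPM there (82, 16, 3 and 3 UMIs). As 3 UMIs were worth 47.3 CPM in stellate-like nuclei of CKO 2, its 0 UMIs of Adamts5 allow a level up to that. Adamts13 had 173, 134, 74.2 and 110 CPM in stellate-like nuclei (158, 20, 31 and 7 UMIs), with both WT libraries the higher. A stellate-like sub-cluster with Adamts13 among its leading genes held 205, 41, 29 and 8 nuclei of WT 1, WT 2, CKO 1 and CKO 2. All stellate-like nuclei were 322, 73, 162 and 35. Within portal fibroblast-like nuclei of WT 1, WT 2 and CKO 1, Timp3 had 464, 463 and 244 CPM and Adamtsl2 245, 268 and 184 CPM. Free RNA was 55.6% and 61.0% of UMIs in WT and 66.4% and 71.9% in CKO. The part of subtype shares, of these markers and of free RNA in the genotype values was not tested.

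In endothelial-like nuclei, Timp3 had 105 and 111 CPM in WT against 47.9 and 51.4 in CKO, a log2 change of -0.95 (SE 0.29, edgeR adjusted p = 0.883). Without CKO 2 it was -1.02. In vessel-type nuclei alone, Timp3 had 179, 118, 85.1 and 97.1 CPM, with both WT libraries again the higher. Adamts10 had 45.0 and 34.1 CPM against 20.5 and 11.0 (-0.96, SE 0.36), and Adamts4 and Adamts7 had changes of -1.18 (SE 0.60) and -0.98 (SE 0.53). All 4 had both CKO libraries below both WT libraries, as had 8 of the 16 members tested, beside 27.9% of all 10104 genes, and 0 had both above, beside 6.61%. Only Timp3 and Adamts10 of the members had an unadjusted p under 0.05, both lower in CKO, beside 5.17% of all genes (2.01% lower and 3.16% higher). DESeq2 gave 0 members at that p, beside 139 of all 10104 genes. Mmp7 and Mmp12 had 0 UMIs in CKO 2. 10 of 16 members had a log2 change below 0, beside 49.3% of all genes. Free RNA was 70.0% and 72.6% of UMIs in WT and 79.2% and 84.1% in CKO. The 14 endothelial markers in the same nuclei summed to 7425 and 5799 CPM in WT and 4443 and 4782 in CKO, and the 14 cholangiocyte markers to 1694.5 and 1268 against 1150 and 624. With free RNA subtracted, 6 members kept enough counts for a test, and the changes of Timp3 and Adamts10 were -0.68 and -0.97. The part of free RNA was not tested beyond this, and that of these markers was not tested.

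In macrophage-like nuclei, 0 of 20 members had an unadjusted p under 0.05, beside 5.26% of all 12169 genes (2.17% lower and 3.09% higher). DESeq2 gave 0 members at that p, beside 138 of all genes. The smallest p belonged to Timp1, with 7.06 and 7.91 CPM in WT and 2.55 and 0 in CKO (-1.47, SE 0.70, edgeR adjusted p = 0.986), with a mean of 4.38 CPM against 4.71 in unnamed barcodes. The members led by this class had changes of -0.13 (SE 0.34) for Mmp12, 0.17 (SE 0.52) for Mmp13 and -0.31 (SE 0.36) for Mmp27, with overlapping genotypes for all 3. Adamtsl1 (-0.69, SE 0.43), Timp3 (-0.62, SE 0.42) and Mmp19 (0.56, SE 0.39) completed the 4 smallest p. The change of Mmp19 was 0.92 without CKO 2 and -0.97 without CKO 1. 6 members had both CKO libraries below both WT libraries, beside 25.7% of all genes, and 1 had both above, beside 6.39%. The members were mostly below 0 here too: 15 of 20 had a log2 change below 0, beside 49.8%.

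In hepatocyte-like nuclei, Timp3 had 21.3 and 22.9 CPM in WT and 6.78 and 9.79 in CKO (-1.33, SE 0.34, edgeR adjusted p = 1.0), with a mean of 15.2 CPM against 17.0 in unnamed barcodes. Adamts7, which this class leads, had 24.9 and 13.1 CPM against 10.6 and 5.52 (-1.18, SE 0.43). Adamts15 (-1.08, SE 0.62) and Timp1 (-1.35, SE 0.77) followed, both under 4 CPM in every library. 2 of 23 members had an unadjusted p under 0.05, both lower in CKO, beside 0.906% of all 13353 genes lower, 0.846% higher and 1.75% in either direction. DESeq2 gave 2 members at that p, beside 191 of all genes. 11 members had both CKO libraries below both WT libraries, beside 16.5% of all genes, and 0 had both above, beside 7.7%. The log2 changes leaned the same way, as 17 had a log2 change below 0, beside 48.4%. The 14 cholangiocyte markers summed to 2892 and 2317 CPM in hepatocyte-like nuclei of WT and 2002 and 1364 in CKO, and their part in the result was not tested. Adamts6 and Mmp7 had their lowest level in CKO 2.

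Over all kept barcodes, where fewer nuclei of a class and less RNA per nucleus cannot be told apart, 28 of 37 members had a log2 change below 0, beside 44.6% of all 16794 genes. Adamts16 had 7.35 and 2.81 CPM in WT and 0.665 and 0.511 in CKO (-2.75, SE 0.59), Timp3 46.4 and 27.0 against 18.0 and 11.1 (-1.04, SE 0.30) and Adamts7 13.0 and 8.66 against 5.05 and 4.17 (-0.94, SE 0.34). These 3 had an unadjusted p under 0.05, beside 1.44% of all genes (0.863% lower and 0.578% higher). DESeq2 gave 4 members at that p, beside 289 of all 16794 genes. 18 members had both CKO libraries below both WT libraries, beside 19.7% of all genes, and 0 had both above, beside 3.42%. Adamtsl1, next by p, had -0.69 (SE 0.27). The 4 TIMPs gave 3 tested members here, all with log2 changes below 0.

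Several MMPs had the same library highest or lowest in all 5 classes and in unnamed barcodes. Mmp7 was lowest in CKO 2 in all 5 classes and in unnamed barcodes, at 0 to 29.99 CPM in the classes and 2.91 in unnamed barcodes, against 33.9 to 41.7 in unnamed barcodes of the other 3 libraries. Mmp14 had 60.8, 48.0, 72.8 and 22.9 CPM in unnamed barcodes and was also lowest in CKO 2 in all 5 classes. Mmp19 had its highest level in CKO 1 in all 5 classes and in unnamed barcodes. Mmp12 had 60.8, 19.0, 69.8 and 6.41 CPM in unnamed barcodes, and CKO 2 was its lowest library in all 5 classes. The 2 CKO libraries thus lay on opposite sides of the WT libraries for Mmp14 and Mmp12 in unnamed barcodes, and the part of free RNA in their values was not tested.

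**Figure D5:**
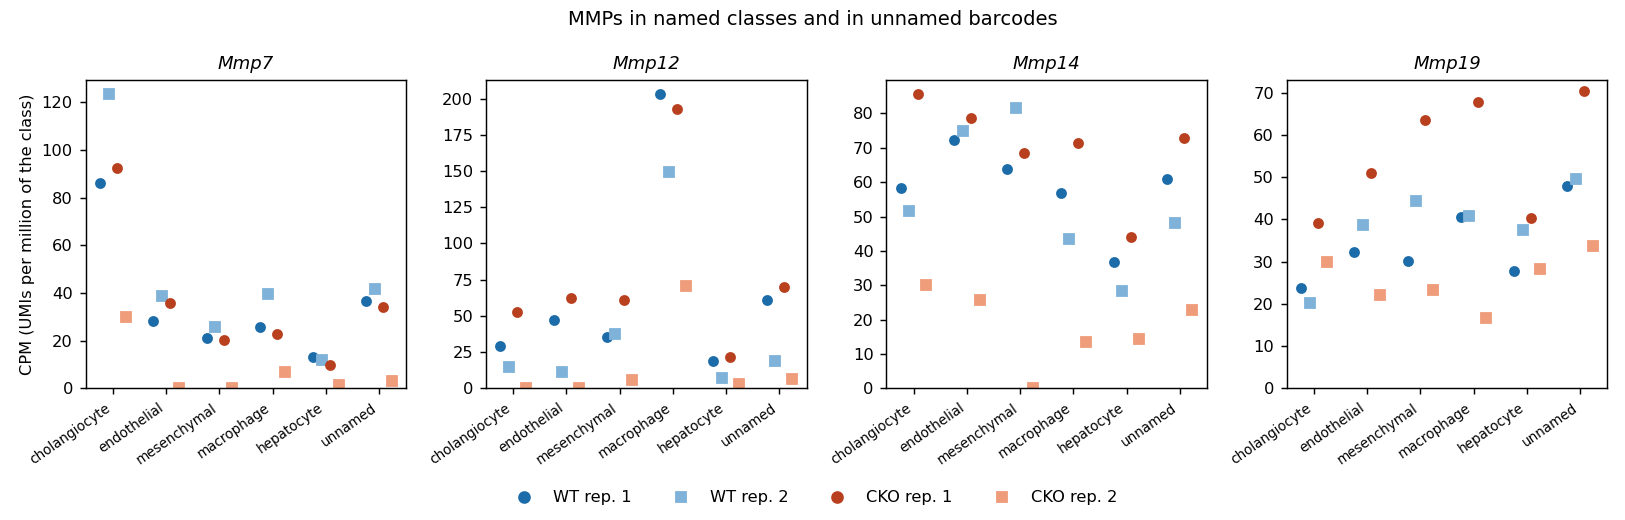
CPM of 4 MMPs in each library (points) across 5 classes and unnamed barcodes, linear axes from 0. CKO 2 is the lowest library for Mmp7, Mmp12 and Mmp14 in every column, and CKO 1 is the highest for Mmp19.

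Partners and substrates of these proteases were read from 2 further lists, 38 other proteases, inhibitors and receptors and 31 matrix proteins. In mesenchymal-like nuclei, 4 of 23 matrix proteins tested had an unadjusted p under 0.05, all lower in CKO, beside 3.58% of all genes lower. There 18 of 23 had a log2 change below 0, beside 48.9% of all genes, with a median of -0.32. The matrix list includes Col1a1, Col1a2, Col3a1, Col5a1 and Dcn, which are among the markers that named this class. It also includes the portal fibroblast marker Eln and the vessel marker Vwf. Portal fibroblast-like nuclei were a smaller share of this class in both CKO libraries, as given above. The part of these overlaps and of that share was not tested. In the other classes 8 of 17 matrix proteins were below 0 in cholangiocyte-like, 10 of 16 in endothelial-like, 10 of 22 in macrophage-like and 13 of 19 in hepatocyte-like nuclei. Of the 21 partners tested in mesenchymal-like nuclei, 7 had a log2 change below 0 and 14 above, and at an unadjusted p under 0.05 there were 2 lower and 1 higher, beside 3.58% and 3.99% of all genes. The smallest p there belonged to Thsd4, an ADAMTS-like protein that binds fibrillin, with 103 and 88.6 CPM in WT against 35.7 and 34.95 in CKO (-1.31, SE 0.28, edgeR adjusted p = 0.27). In endothelial-like nuclei 3 of 16 matrix proteins had an unadjusted p under 0.05, all lower in CKO, beside 2.01% of all genes lower. The smallest p-values belonged to Col1a1, a fibrillar collagen chain (-1.78, SE 0.55), and Eln, elastin (-1.78, SE 0.61). With UMIs pooled over the 4 libraries, as for the other ratios to unnamed barcodes in this paragraph, Col1a1 was at 0.849 times its level in unnamed barcodes. Bsg, a cell-surface inducer of MMPs, had changes of 0.80 (SE 0.28) in cholangiocyte-like, 1.01 (SE 0.32) in mesenchymal-like and 0.95 (SE 0.28) in macrophage-like nuclei, in each at 0.562 to 0.726 times its level in unnamed barcodes. Lrp1, the receptor that clears many of these proteases, had 0.75 (SE 0.25) in cholangiocyte-like nuclei, at 0.593 times. Vcan, the proteoglycan versican, had 2.17 (SE 0.71) in macrophage-like nuclei, from 23, 1, 77 and 0 UMIs in WT 1, WT 2, CKO 1 and CKO 2. In hepatocyte-like nuclei Reck, a membrane inhibitor of MMPs, had 2.001 and 3.04 CPM in WT and 7.18 and 9.79 in CKO (1.86, SE 0.50), and Col3a1 had -1.06 (SE 0.32). No gene of either list passed the threshold in any class, with edgeR or DESeq2.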

How the data were processed

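Nuclei from frozen livers were sequenced with 10x 3' chemistry, per the labels' protocols, and the authors deposited raw UMI counts per gene and barcode, made with Cell Ranger 5.0.1 on mm10, per the submitters' processing notes. Barcodes with at least 500 genes were kept, 0.8% per 1000 barcodes were removed as doublets with Scrublet, and the rest were clustered in scanpy 1.11.5 (2000 variable genes without the members, 30 principal components, Leiden resolution 1). A cluster was named when at least 3 markers with at least 5 UMIs lay 1.5 times over free RNA, estimated from the lowest 10% of barcodes by UMI count. Counts were summed per library and class and tested with edgeR 4.0.16 (quasi-likelihood, filterByExpr, TMM, Benjamini-Hochberg over all genes tested), which was tested on simulated data with 200 changed genes. A class was tested with at least 20 nuclei in every library. Libraries, not nuclei, were the replicates.

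Named with values were members with at least 50 UMIs in a class, the 4 with the smallest unadjusted p per class, the TIMPs, Mmp2, Mmp9, Mmp14 and Rbpj, and the 2 other matrix genes with the smallest p per class. The members and lists were chosen with earlier results of these data known. Poisson intervals (95%) and the limit of 3 UMIs for a count of 0 cover counting error only. Other settings tried were a replicate block, no count filter, RLE scaling, DESeq2 1.42.0, each library left out, at least 1000 UMIs, doublets kept, Leiden resolution 2 and free RNA subtracted. Promoters are from RefSeq (GRCm38.p6), where 35 members matched.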

Additional observations from a re-analysis of the deposited data

Results flagged for a closer look

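Adamtsl4, an ADAMTS-like protein, had log2 changes of opposite sign in 2 classes. Each sign held within both replicate numbers, which pair nothing in the labels. In mesenchymal-like nuclei the change was 0.55 (14.6, 11.7, 15.4 and 29.1 CPM in WT 1, WT 2, CKO 1 and CKO 2, from 29, 5, 16 and 5 UMIs). CKO 1 was close to WT 1 there, and the level in CKO 2 rests on 5 UMIs. In hepatocyte-like nuclei it was -0.75 (2.95, 4.45, 2.59 and 1.60 CPM, from 31, 19, 13 and 9 UMIs). The difference between the classes was not tested.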

How the results depend on the processing

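With no count filter, 1 member passed in cholangiocyte-like nuclei (Adamts16) and 2 in mesenchymal-like nuclei (Adamts5 and Adamtsl1). With doublets kept, and with the replicate block, 1 passed in cholangiocyte-like nuclei, Adamts16 in both (edgeR adjusted p = 0.0093 with the block), and the block changed no other count of members. The labels pair nothing, and same-numbered libraries correlated at 0.073 to 0.491 in their deviations, over 2 pairs. Leaving out each library gave 0 to 2 members past the threshold in cholangiocyte-, endothelial- and hepatocyte-like, 0 to 4 in mesenchymal-like and 0 to 1 in macrophage-like nuclei. It put 1 to 2 members first in hepatocyte-like and 1 to 2 in endothelial-like nuclei. A lone library was then assumed to vary like the other genotype. Over all kept barcodes 0 passed under all 10 alternatives. For the settings with members past the threshold, the share of all genes past it is not given here. Without CKO 1, the changes of Mmp12 and Mmp14 in cholangiocyte-like nuclei were -8.57, with 0 UMIs of Mmp12 left in CKO, and -0.75, and that of Mmp19 in macrophage-like nuclei was -0.97. Over the libraries left out, these 3 ranged up to 1.41 (without WT 1), 0.70 and 0.92 (without CKO 2), and Rbpj in cholangiocyte-like nuclei ranged from -0.79 to 0.019, the latter without CKO 2. The cause was not tested. Other changes of the genes named by p in each class kept their direction. A gene that failed the count filter under an alternative has no value there. CKO 2, with 1 UMI worth 9.996 CPM in cholangiocyte-like nuclei, limits the depth.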

Other observations

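Members in classes and subtypes with few nuclei are named here after their values were seen and given with exact Poisson intervals for counting error. In the 100 mesothelial-like nuclei, Adamtsl1 had 168 UMIs, or 643 CPM (549 to 748), at 685, 589, 665 and 569 CPM in WT 1, WT 2, CKO 1 and CKO 2. Timp2, an inhibitor of MMPs, had 168 CPM there (122 to 226, 44 UMIs). Adamts6 had 60.5 CPM (42.8 to 83.0) in T or NK-like nuclei and 57.3 (35.5 to 87.6) in B or plasma-like nuclei, below its mean in cholangiocyte-like nuclei. In the 32 lymphatic endothelial-like nuclei, Timp3 had 22 UMIs, or 260 CPM (163 to 394), of which 21 were in WT 1. Mmp28 had 21.2 CPM (14.2 to 30.4) in vessel-type and 2.26 (0.273 to 8.15) in sinusoidal-type endothelial-like nuclei. Mmp8, a neutrophil collagenase, had 19, 3, 69 and 0 UMIs in all kept barcodes of WT 1, WT 2, CKO 1 and CKO 2.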
